A study of Mus musculus with 9 samples.

Results

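Muscle of aged mice given GW8510 was compared with muscle of young mice given vehicle, gene by gene, in 6 of the 9 RNA-seq libraries of the series. The comparison takes 3 aged GW8510 libraries (1, 3 and 4) and 3 young vehicle libraries (2, 3 and 4), as the sample titles name them, and every gene of the count tables. All mice were males of the outbred ICR stock. The young vehicle mice were 2 months old. The aged GW8510 mice got 2 mg/kg of GW8510 in the peritoneum each day for 14 days, starting at 18 months, and the carrier was sodium carboxymethylcellulose. GW8510 is a benzenesulfonamide by the series title, which links it to the p21-activated kinases, and it is otherwise known as an inhibitor of cyclin-dependent kinases. The remaining 3 libraries, from 18-month mice given vehicle (aged vehicle 1, 3 and 4), are set beside the others. The groups compared differ in age and in treatment at once, so the effects of age and of GW8510 cannot be told apart between them. The labels do not name the muscle or the hour of collection. They also do not say that each library is a separate animal, so that p-values measure the spread between these libraries, which may be technical.

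Skeletal muscle keeps its own circadian clock. In it the activator BMAL1 (gene Arntl), paired with CLOCK or NPAS2, switches on the Per, Cry and Nr1d genes, and the proteins of these genes repress the activators or the Arntl gene in turn. DBP, TEF and HLF pass the rhythm on to output genes. Immediate-early genes and heat-inducible chaperones are transcribed within minutes of a stimulus. Collagens of muscle are made mainly by fibroblasts and tendon cells, most of all during growth.

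Clock genes stood high and the clock activator Arntl low in aged GW8510 muscle, collagen and other matrix genes lay low, most of them past the threshold only with 6 libraries or not at all, and single genes of fat uptake and oxidation rose. Of 14384 genes tested, 48 rose (0.334%) and 60 fell (0.417%) in aged GW8510 against young vehicle, 0.751% in all (edgeR quasi-likelihood test over the 9 libraries, Benjamini-Hochberg adjusted p under 0.05). Before adjustment, 2399 genes (16.7%) had a p under 0.05. A fit of the 6 compared libraries alone passed 207 higher and 262 lower genes of 14010 (1.48% and 1.87%, 3.35% in all), and these included all 108. Aged vehicle library 4 correlated least with the rest of its group (0.942 on average), and a 9-library fit without it passed 594 genes, again including all 108. Of the compared libraries, leaving out young vehicle 2, 3 or 4 gave 63, 27 or 42 genes, and leaving out aged GW8510 1, 3 or 4 gave 38, 25 or 126. The 18 genes that passed in all 9 of these leave-one-out fits include Per2, Per3, Dnajb1, Nt5dc3, Slc38a4, Wsb1, Ypel2, Tmem232 and Zfp968. Results of the 9-library fit are given first here, and those of the 6-library fit beside them.

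In all 108 genes the young and the aged GW8510 libraries did not overlap. Over all genes tested, 12.9% lay higher and 12.8% lower without overlap. The median log2 difference of all genes was 0.01 (-0.08 with library totals in place of TMM factors), and 100 of the 108 genes differed at least 2-fold. By annotation 88 of the 108 were protein coding and 9 were pseudogenes. The authors' deposited table for the same groups marks 729 genes as changed, 300 higher and 429 lower, and 100 of the 108 are among those. Against aged vehicle, by contrast, no gene of aged GW8510 passed the same edgeR test. There the smallest adjusted p was 0.79, and 647 genes (4.5%) had an unadjusted p under 0.05. DESeq2 passed 8 genes, limma-voom 0, edgeR without a filter on low counts 5 and edgeR without aged vehicle library 3 passed 2. Both comparisons share the aged GW8510 libraries, so levels in aged vehicle are given below side by side. Of the 108 genes, 23 had an unadjusted p under 0.05 against aged vehicle (edgeR). Where such a p is printed below, its gene was first picked for its difference from young. The same aged GW8510 libraries enter that p, so it cannot stand as a test of a step from aged vehicle.

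The 6 libraries held 22344065 to 26489544 counts on genes, with 18783 to 19744 genes detected. Genes of the mitochondrial genome took 10.26% to 10.63% of counts in young and 13.82% to 18.6% in aged GW8510 libraries. All 10 muscle fibre markers were tested, among them Acta1, Ckm and Ttn, and none passed. Their summed level was 117351 to 149605 CPM (counts scaled to the library total and the TMM factor) in young and 100138 to 121924 CPM in aged GW8510 muscle. Below, values in CPM follow the order of the library numbers, and a value after ± is an SD over the 3 libraries of a group.

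**Figure D1:**
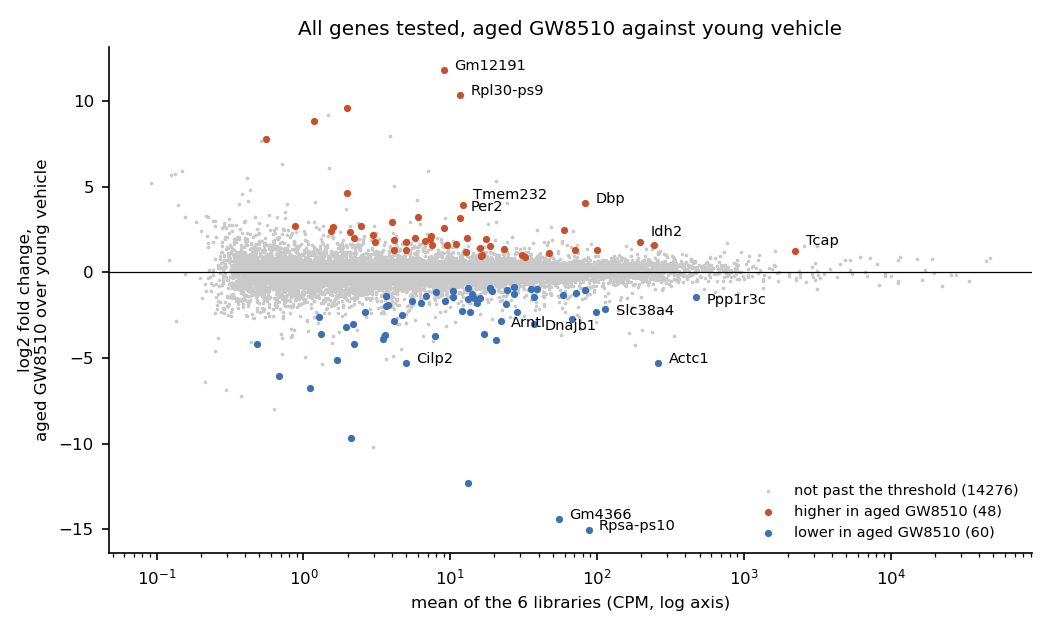
Each point is 1 of the 14384 genes tested, with its mean over the 6 libraries (CPM, log axis) against its log2 difference, aged GW8510 over young vehicle. The 48 higher genes and the 60 lower genes past the threshold are coloured, and genes at the far top and bottom, such as Gm12191 and Rpsa-ps10, have almost no reads in 1 of the groups, so that their fitted values are no bounds.

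Of the 14 clock repressors and output genes, 6 rose (against 0.334% of all genes) and none fell in aged GW8510 muscle. Of the 14, 12 lay above 0, as did 51.3% of all genes tested. RNA of clock genes varies with the hour of the day. The hour of collection is not given for any group, and its part in the clock values was not tested. The list's median log2 difference was 0.76, against 0.01 for all genes. In the 6-library fit 8 rose, and 6 to 7 when any 1 of its libraries was left out. In the 9-library fit the number fell to 2 without young vehicle 3, young vehicle 4 or aged GW8510 3, to 3 without young vehicle 2 or aged GW8510 1, to 4 without aged vehicle 1 or aged GW8510 4, and to 0 with a replicate block. Aged vehicle had a median of 0.67 against young.

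Among the repressors, Per2 (chr1:91415982-91459324), which encodes a core repressor, measured 1.57, 2.33 and 3.12 CPM in the young libraries and 19.5, 27.7 and 16.2 CPM in the aged GW8510 libraries. It was 9.04-fold higher (log2 3.18, SE 0.31; adjusted p = 0.00195, edgeR) and passed in 9 of the 9 leave-one-out fits. Per3 (chr4:151003652-151044665) measured 5.61, 4.27 and 5.54 CPM in young and 21.8, 25.1 and 15.7 CPM in aged GW8510 muscle. The groups of both genes are far apart, the lowest aged GW8510 library lying well above the highest young one. Per3 was 4.05-fold higher (log2 2.02, SE 0.20; adjusted p = 0.00235, edgeR). Nr1d2 (chr14:18204054-18239127), whose product REV-ERB beta represses Arntl, measured 71.7, 48.2 and 52.2 CPM in young and 141, 147 and 138 CPM in aged GW8510 libraries. It was 2.48-fold higher (log2 1.31, SE 0.18; adjusted p = 0.0142). Ciart, a repressor of CLOCK and BMAL1, measured 1.20, 1.44 and 0.897 CPM in young and 11.7, 10.6 and 10.6 CPM in aged GW8510 libraries, which lay close together. It was 9.29-fold higher (log2 3.22, SE 0.58; adjusted p = 0.0387, and 0.00163 with 6 libraries). Cry2, chosen after its values were seen, was 1.83-fold higher at 41.9 ± 3.01 CPM against 23 ± 3.38 CPM (adjusted p = 0.0284).

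Dbp (chr7:45705088-45710203), the output factor, measured 8.75, 9.77 and 10.1 CPM in young and 183, 160 and 125 CPM in aged GW8510 muscle. It was 16.4-fold higher (log2 4.03, SE 0.59; adjusted p = 0.0176), had the greatest rise among the genes named by the rule in the processing notes, and its adjusted p was 8e-05 with 6 libraries. Aged vehicle libraries 1 and 3 measured 142 and 125 CPM of Dbp, and library 4 only 21.2 CPM. The same library stood low for Ciart as well, at 1.69 CPM against 9.89 and 11.9 CPM in its group. In the 9-library fit, Dbp passed in 4 and Ciart in 2 of the 9 leave-one-out fits. The related factors Tef and Hlf, chosen after their values were seen, missed the threshold with 9 libraries (log2 0.64 and 1.49, adjusted p = 0.0642 and 0.0725) and passed it with 6 (0.0384 and 0.00504). Per length of transcript, Nr1d2 stood at 30.8 TPM, a level scaled by length, and Per2 at 4.84 TPM in aged GW8510 muscle, while Dbp reached 110 TPM.

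Arntl, the activator, went the other way: it measured 38.7, 39.1 and 38.2 CPM in young and 5.49, 2.97 and 7.61 CPM in aged GW8510 libraries. The young libraries agree closely and lie far above the others. Arntl (chr7:113207465-113314126) was 7.21-fold lower (log2 -2.85, SE 0.40; adjusted p = 0.0154) and passed in 6 of the 9 leave-one-out fits. Aged vehicle libraries lay in between, at 10.7, 9.04 and 22.4 CPM. The step from aged vehicle to aged GW8510 was log2 -1.39, with an unadjusted p of 0.00476 and an adjusted p of 0.934 (edgeR), so it did not pass. Of the 8 activators and antiphase targets only Arntl passed with 9 libraries, and the list's median was -0.51. With 6 libraries Npas2, a partner of BMAL1, and Nfil3, which opposes DBP at shared sites, were also lower (chosen after their values were seen; log2 -3.70 and -1.26, adjusted p = 0.0339 and 0.0254). Per1, Nr1d1 and Cry1 did not pass in either fit.

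**Figure D2:**
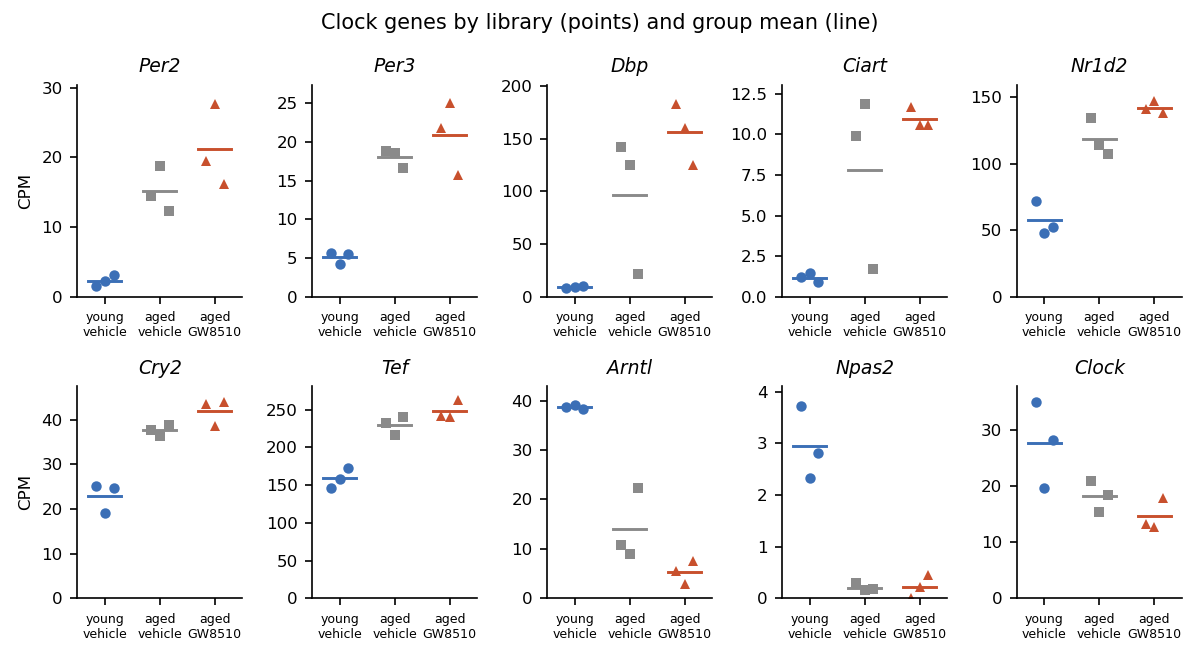
Levels of clock genes, Tef, Npas2 and Clock among them, in each library (CPM, axes from 0), in young vehicle, aged vehicle and aged GW8510 muscle. Points are libraries and lines are group means. Per2, Per3, Dbp, Ciart, Nr1d2 and Cry2 lie higher in all aged GW8510 libraries than in any young one, and Arntl lower, between 2.97 and 7.61 CPM against 38.2 to 39.1 CPM.

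Promoter windows of 300 bases around the transcription start were read for Per3, Nr1d2, Arntl, Dbp, Cry2 and Ciart, and not for Per2, from the RefSeq table of build GRCm38.p6. CLOCK and BMAL1 bind the E-box CACGTG, and DBP, TEF and HLF bind the D-box, searched as TTATGTAA or TTACGTAA on both strands. Both sequences shown here hold such a word, printed in capitals. That of Per3 (chr4:151044616-151044915, minus strand) holds 2 D-boxes, 205 and 158 bases before the start:
Per3: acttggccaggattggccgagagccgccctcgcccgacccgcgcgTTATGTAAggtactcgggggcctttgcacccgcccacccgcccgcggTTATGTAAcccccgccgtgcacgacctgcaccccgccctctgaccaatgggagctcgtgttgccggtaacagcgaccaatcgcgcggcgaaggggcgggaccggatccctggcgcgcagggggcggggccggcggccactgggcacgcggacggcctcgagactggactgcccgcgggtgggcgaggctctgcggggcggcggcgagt
That of Ciart (chr3:95882179-95882478, minus strand), shown for its E-boxes and so chosen after its values were seen, holds 3 of them, 116, 58 and 44 bases before the start:
Ciart: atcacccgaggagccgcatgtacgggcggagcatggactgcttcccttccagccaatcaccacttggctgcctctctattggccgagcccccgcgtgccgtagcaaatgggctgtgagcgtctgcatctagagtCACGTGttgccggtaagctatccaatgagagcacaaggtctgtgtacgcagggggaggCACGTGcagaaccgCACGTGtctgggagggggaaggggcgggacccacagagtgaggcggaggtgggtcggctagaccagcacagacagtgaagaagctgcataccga
This D-box is found in 1.06% and this E-box in 7.15% of all 32851 windows of the RefSeq table. The windows of Nr1d2, Dbp, Cry2 and Arntl hold neither word, which says only that these letters are not within these bases. Among the risen genes, 27 of 48 had a window, and 5 of those held the E-box (Adh1, Ciart, Irak1bp1, Rap1gap and Slc27a1) and 1 the D-box. Among the fallen genes, 40 of 60 had a window, and 7 of those held the E-box and 0 the D-box. A match is a description of the letters and not of binding.

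Immediate-early genes were low in aged GW8510 muscle: 2 of 27 tested fell (against 0.417% of all genes), 24 lay below 0 and the list's median was -0.91. With 9 libraries this became 0 without young vehicle 3 or any 1 aged GW8510 library, 1 without young vehicle 2 or aged vehicle 1, and 12 without aged vehicle 4. With 6 libraries 10 fell, and 2 to 9 when 1 of the 6 was left out (lowest without aged GW8510 1). Fosl2, a subunit of the AP-1 factor, measured 57.3, 30.0 and 25.5 CPM in young and 9.85, 10.2 and 11 CPM in aged GW8510 libraries. It was 3.63-fold lower (log2 -1.86, SE 0.29; adjusted p = 0.0225). Egr1, a zinc-finger factor of early growth responses, measured 38.4, 15.9 and 16.7 CPM in young and 5.95, 6.51 and 7.92 CPM in aged GW8510 libraries. Young vehicle 2 was the highest library for both genes. Egr1 was 3.48-fold lower (log2 -1.80, SE 0.34; adjusted p = 0.0475), and passed in 2 of the 9 leave-one-out fits against 5 for Fosl2. Gem, a small GTP-binding protein that restrains calcium channels, was 4.95-fold lower, at 0.879 ± 0.160 against 4.37 ± 0.989 CPM (adjusted p = 0.0307). Klf10, a TGF-beta-responsive repressor chosen after its values were seen, was 2.45-fold lower with an adjusted p of 0.0094. Aged vehicle was low for the immediate-early list too, with a median of -1.33 against young.

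Dnajb1 (chr8:83608193-83612653), the HSP40 partner of HSP70, was the member of the 21 heat-inducible chaperones that fell with 9 libraries. It measured 84.8, 54.6 and 60.5 CPM in young, 6.72, 9.61 and 8.06 CPM in aged GW8510 and 10.5, 6.71 and 6.54 CPM in aged vehicle libraries. The difference was 8.20-fold (log2 -3.03, SE 0.26; adjusted p = 0.00164), and Dnajb1 passed in 9 of the 9 leave-one-out fits. Hspa1a, an inducible HSP70 gene chosen after its values were seen, measured 483, 264 and 161 CPM in young and 8.58, 14.8 and 53.6 CPM in aged GW8510 libraries. Its groups are apart, but it missed the threshold with 9 libraries (log2 -3.56, adjusted p = 0.0672) and passed with 6 (0.0367). Over the list the median was -0.23, and with 6 libraries 4 members fell, 1 to 6 when 1 library was left out. The 2 promoter windows of Dnajb1 hold no heat shock element core (GAANNTTC or TTCNNGAA, both strands), a word found in 15.1% of all windows. Of the 7 small heat shock proteins of muscle, 4 lay above 0 and 3 below, with a median of 0.19. With 6 libraries Hspb7 (log2 1.61, adjusted p = 0.00504) and Hspb6 (log2 1.15, adjusted p = 0.0334), both chosen after their values were seen, were higher and no member was lower, and with 9 libraries none passed. Hspb1, also chosen so, stood at log2 -0.45 (adjusted p = 0.584).

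Genes of the extracellular matrix lay low, few of them past the threshold. Of the 28 collagen chains tested, 28 lay below 0, 23 without overlap between the groups (12.8% of all genes lay so). Their median log2 difference was -2.08 against 0.01 for all genes. Yet 0 of the 28 passed with 9 libraries, while 16 fell with 6 and 18 in the 9-library fit without aged vehicle 4. The 6-library count rested on single libraries: it was 6, 3 and 8 without young vehicle 2, 3 and 4, and 7, 3 and 22 without aged GW8510 1, 3 and 4. In bulk muscle, fewer cells of a type and less RNA per cell cannot be told apart. Summed markers of fibroblasts, a list of 14 that shares Col1a1, Col3a1 and Lox with the matrix lists, stood at 3238, 3083 and 1545 CPM in young and 642, 644 and 1323 CPM in aged GW8510 libraries, and their part in the collagen levels was not tested. Of the 14, 13 lay below 0 and Lox alone fell with 9 libraries. Their surface receptor Pdgfra, which makes no matrix, measured 37.4, 24.3 and 10.8 CPM in young and 6.36, 6.42 and 18.2 CPM in aged GW8510 libraries, which overlap (chosen after its values were seen; log2 -1.23, adjusted p = 0.343).

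Col1a1, the main chain of type I collagen, measured 245, 566 and 224 CPM in young and 10.9, 8.77 and 35.2 CPM in aged GW8510 muscle. Chosen after its values were seen, it differed by log2 -4.24 (SE 0.90; adjusted p = 0.0642 with 9 and 0.0144 with 6 libraries). Col3a1, of the fine fibrils of type III, measured 603, 849 and 421 CPM in young and 31.6, 24.6 and 85.9 CPM in aged GW8510 libraries. For both chains aged GW8510 4 was the highest of its group, and both groups are apart. Col5a3, the chain of the list with the smallest p, differed by log2 -2.66 (adjusted p = 0.0561 with 9 and 0.0166 with 6 libraries). Aged vehicle had a collagen median of -2.29 against young, with Col1a1 at 23.5, 35.3 and 2.60 CPM.

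Lox, the enzyme that cross-links collagen and elastin, measured 13.6, 16.5 and 12 CPM in young and 3.18, 3.23 and 6.41 CPM in aged GW8510 libraries. It was 3.27-fold lower (log2 -1.71, SE 0.29; adjusted p = 0.0307), the only call among 26 collagen folding and cross-linking genes, of which 6 fell with 6 libraries. Lox passed in 3 of the 9 leave-one-out fits, and was lost without young vehicle 2, 3 or 4, aged vehicle 1, or aged GW8510 1 or 3. The count of 6 became 0 without young vehicle 2, young vehicle 3 or aged GW8510 3, 1 without aged GW8510 1, 4 without young vehicle 4 and 9 without aged GW8510 4. The groups of Lox do not overlap. Matricellular and elastic fibre genes had a median of -1.07 with 0 of 30 above 0, and 0 passed with 9 libraries and 5 fell with 6. That 5 became 2, 1 and 3 without young vehicle 2, 3 and 4, and 2, 0 and 13 without aged GW8510 1, 3 and 4. Thbs1 (thrombospondin, log2 -2.88, adjusted p = 0.0543) came closest in that list. Laminins and other basement membrane genes had a median of -0.98, and 0 of 14 passed with 9 libraries and 2 fell with 6. Those 2 became 0 without any 1 young library or aged GW8510 3, 1 without aged GW8510 1 and 7 without aged GW8510 4. Of 21 matrix proteases and their inhibitors 0 passed with 9 libraries, and 5 fell and 1 rose with 6. The number of falls was 0 to 2 when a library other than aged GW8510 4 was left out and 8 without aged GW8510 4. The smallest p was that of Adamts4, an aggrecanase, at log2 -3.81 (adjusted p = 0.0536).

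Cilp2, a cartilage and tendon matrix protein, fell most among the tendon markers. It measured 5.98, 17.9 and 5.19 CPM in young and 0.136, 0.0886 and 0.490 CPM in aged GW8510 libraries, with no overlap. The difference was 39.8-fold (log2 -5.31, SE 0.85; adjusted p = 0.025). Aged GW8510 1 and 3 lie at or below the floor of 3 counts (0.136 and 0.133 CPM), so the size of this fold is uncertain. Of the 8 tendon markers tested 1 fell with 9 libraries (0 without young vehicle 3, aged GW8510 1 or aged GW8510 3) and 4 with 6 (6 without aged GW8510 4 and 1 without any of the others), the median was -3.01, and Scx, the defining factor of tendon cells, was the member above 0 (log2 0.37, chosen after its values were seen). Summed tendon markers were 180, 378 and 196 CPM in young and 70.5, 58.3 and 101 CPM in aged GW8510 libraries, and their part in the matrix values was not tested. Peg3, an imprinted gene of postnatal growth, measured 29.6, 13.4 and 16.6 CPM in young and 2.72, 4.21 and 5.70 CPM in aged GW8510 libraries. It was 4.72-fold lower (log2 -2.24, SE 0.37; adjusted p = 0.0271) and the call among 18 imprinted genes, whose median was -0.70. It was lost without any 1 young library, aged GW8510 1 or aged GW8510 3. With 6 libraries 3 fell, and 0 to 7 when 1 was left out (0 without aged GW8510 3, 1 without young vehicle 2 or 3, and 7 without aged GW8510 4).

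**Figure D3:**
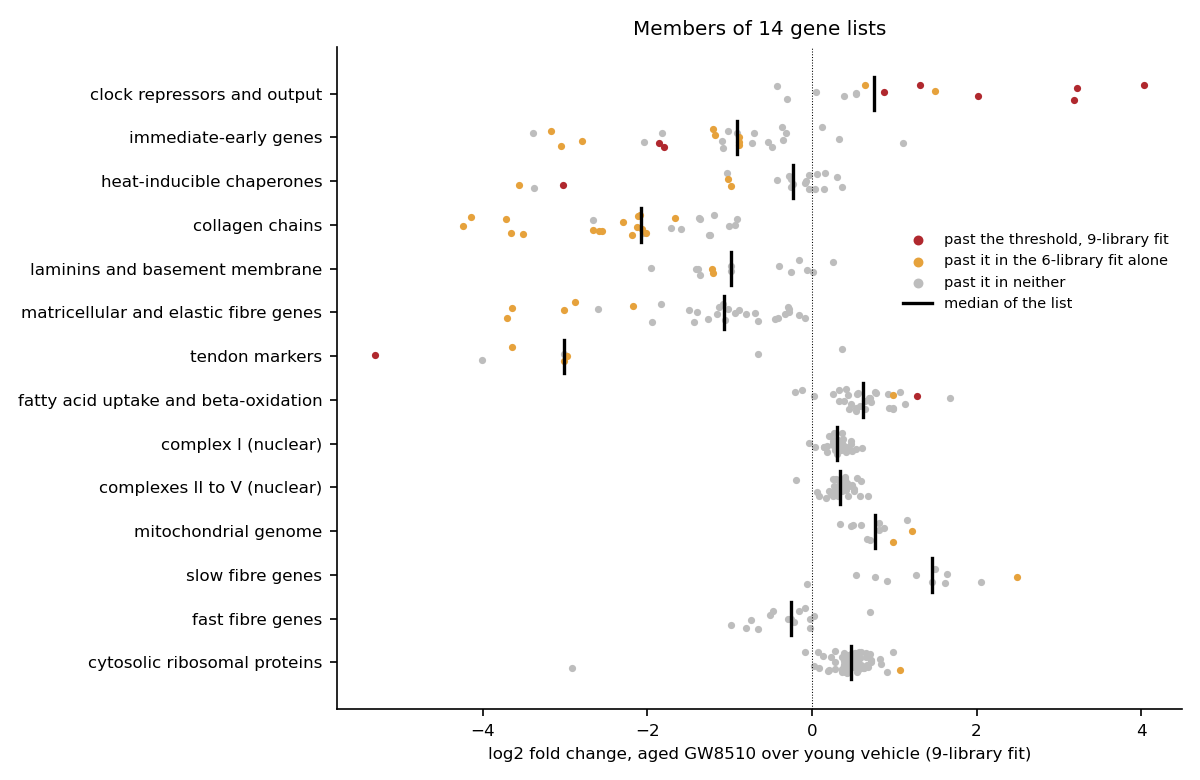
Each point is a member of 1 of 14 gene lists at its log2 difference, aged GW8510 over young vehicle, and the bar is the list's median. Collagens (median -2.08) and tendon markers (-3.01) lie left of 0, and clock output (0.76), fatty acid (0.62) and mitochondrial genome genes (0.76) lie right of it, while most single members pass the threshold in neither fit or with 6 libraries alone.

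Single genes of fat uptake, mitochondrial oxidation and antioxidant defence rose in aged GW8510 muscle. Slc27a1 (chr8:71568882-71587302), the fatty acid transporter FATP1, measured 42.6, 38.3 and 43.7 CPM in young and 84.8, 131 and 87.2 CPM in aged GW8510 libraries. It was 2.43-fold higher (log2 1.28, SE 0.22; adjusted p = 0.0321). Aged vehicle libraries measured 41.6, 62.9 and 66.1 CPM of Slc27a1, all below the aged GW8510 libraries. The difference from aged vehicle was log2 0.83, with an unadjusted p of 0.00401 and an adjusted p of 0.934 (edgeR). Slc27a1 was 1 of 32 fatty acid genes to pass. Of the 32, 30 lay above 0, 19 without overlap (12.9% of all genes lay so), with a median of 0.62 (0.28 in aged vehicle against young). Slc27a1 lost its call without any 1 young library, aged GW8510 1 or aged GW8510 3. With 6 libraries 2 rose (6 without aged GW8510 1, 0 without young vehicle 3 or 4, and 1 without any of the others), the second being Lipe, hormone-sensitive lipase (chosen after its values were seen; log2 0.98, adjusted p = 0.0543 with 9 and 0.0367 with 6 libraries).

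Idh2 (chr7:80094846-80115392), the NADP-dependent isocitrate dehydrogenase of mitochondria, measured 103, 81.6 and 85.0 CPM in young and 230, 433 and 249 CPM in aged GW8510 libraries. It was 3.38-fold higher (log2 1.76, SE 0.30; adjusted p = 0.0301). The call of Idh2 was lost without any 1 young library, aged GW8510 1 or aged GW8510 3. With 6 libraries it was lost without young vehicle 3 or 4. Pparg, the nuclear receptor of fat storage, measured 2.53, 1.78 and 2.54 CPM in young and 4.77, 10.7 and 7.57 CPM in aged GW8510 libraries. Library 3 was the highest of the aged GW8510 group for Slc27a1, Idh2 and Pparg alike. Pparg was 3.36-fold higher (log2 1.75, SE 0.31; adjusted p = 0.0355). Its call was lost without any 1 young library, aged vehicle 1, aged GW8510 3 or aged GW8510 4. With 6 libraries it was lost without any 1 young library or aged GW8510 3. Summed adipocyte markers, of which none passed, were 925 to 1574 CPM in young and 988 to 1378 CPM in aged GW8510 libraries. Aged vehicle libraries lay below both, at 709, 634 and 658 CPM. The median of the adipocyte list was 0.78, with 7 members above 0 and 4 below, against -1.30 for aged vehicle over young. The part of these markers in the Pparg values was not tested. Gpx3, the secreted glutathione peroxidase, measured 132, 129 and 109 CPM in young and 410, 424 and 274 CPM in aged GW8510 muscle. Its level was 3-fold higher (log2 1.58, SE 0.24; adjusted p = 0.0209), the call among 28 antioxidant genes, and aged vehicle stood as high at 313, 251 and 427 CPM. With 9 libraries the call of Gpx3 was lost without any 1 young library, aged GW8510 1 or aged GW8510 3. With 6 libraries the antioxidant list kept 1 or 2 calls when 1 was left out.

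Respiratory chain genes leaned upward by small amounts, and none passed with 9 libraries. Complex I subunits of the nucleus lay above 0 in 35 of 36 cases, 6 without overlap, with a median of 0.31. Those of complexes II to V did so in 41 of 42 cases, 8 without overlap, with a median of 0.35. The respective medians of aged vehicle against young were 0.04 and 0.06. Of all genes tested, 12.9% lay higher without overlap. Summed complex I levels overlapped, at 5939, 7538 and 7411 CPM in young and 8335, 10207 and 7301 CPM in aged GW8510 libraries. Sums of complexes II to V overlapped as well. The mitochondrial genome's protein genes lay above 0 in 12 of 12 cases, 10 without overlap, with a median of 0.76 (0.43 in aged vehicle), and mt-Co2 and mt-Nd3 rose with 6 libraries (log2 0.99 and 1.21, adjusted p = 0.0152 and 0.0294). Citric acid cycle genes lay above 0 in 26 of 28 cases with a median of 0.20. Ppargc1a, the coactivator of mitochondrial biogenesis, measured 18.3, 13.9 and 17.8 CPM in young and 27.7, 24.6 and 77.8 CPM in aged GW8510 libraries, and did not pass (adjusted p = 0.123). Glycolysis and glycogen genes had a median of -0.11 and no call with 9 libraries; Hk2, hexokinase of insulin-sensitive tissue, came closest (log2 0.82, adjusted p = 0.0667). With 6 libraries 3 rose and none fell (0 to 5 rose when 1 was left out): Hk2 (adjusted p = 0.0205) and, chosen after their values were seen, Ugp2 and Gbe1, enzymes of glycogen synthesis (log2 0.91 and 1.15, adjusted p = 0.0158 and 0.0225). Ugp2 was far from the threshold with 9 libraries (adjusted p = 0.343, edgeR).

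Outside these lists, and chosen after their values were seen, Ppp1r3c, a glycogen-targeting subunit of protein phosphatase 1, was 2.78-fold lower at 251 ± 62.2 against 697 ± 83.0 CPM (adjusted p = 0.0295). Insig1, a brake on sterol synthesis, was 2.37-fold lower (adjusted p = 0.0254). Car2, a carbonic anhydrase, was 2.66-fold higher (adjusted p = 0.0138). Slc25a25, a calcium-gated ATP-magnesium carrier of mitochondria named by the rule, was 5.02-fold lower at 32.7 ± 16 against 164 ± 28.3 CPM (adjusted p = 0.0428). Amy1, an amylase, was 5.58-fold higher, with 127, 83.7 and 90.5 CPM against 24.2, 13.7 and 16.1 CPM (adjusted p = 0.0165). Trib3, a pseudokinase of the amino acid stress response, was 6.26-fold higher at 2.76 ± 0.881 against 0.438 ± 0.142 CPM (adjusted p = 0.0176). Trib3 was the call among 16 ATF4 targets, whose median was 0.12. That call was lost without any 1 young library, aged GW8510 1 or aged GW8510 3. With 6 libraries the list had 2 calls, and 0 without young vehicle 2, young vehicle 4 or aged GW8510 3.

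**Figure D4:**
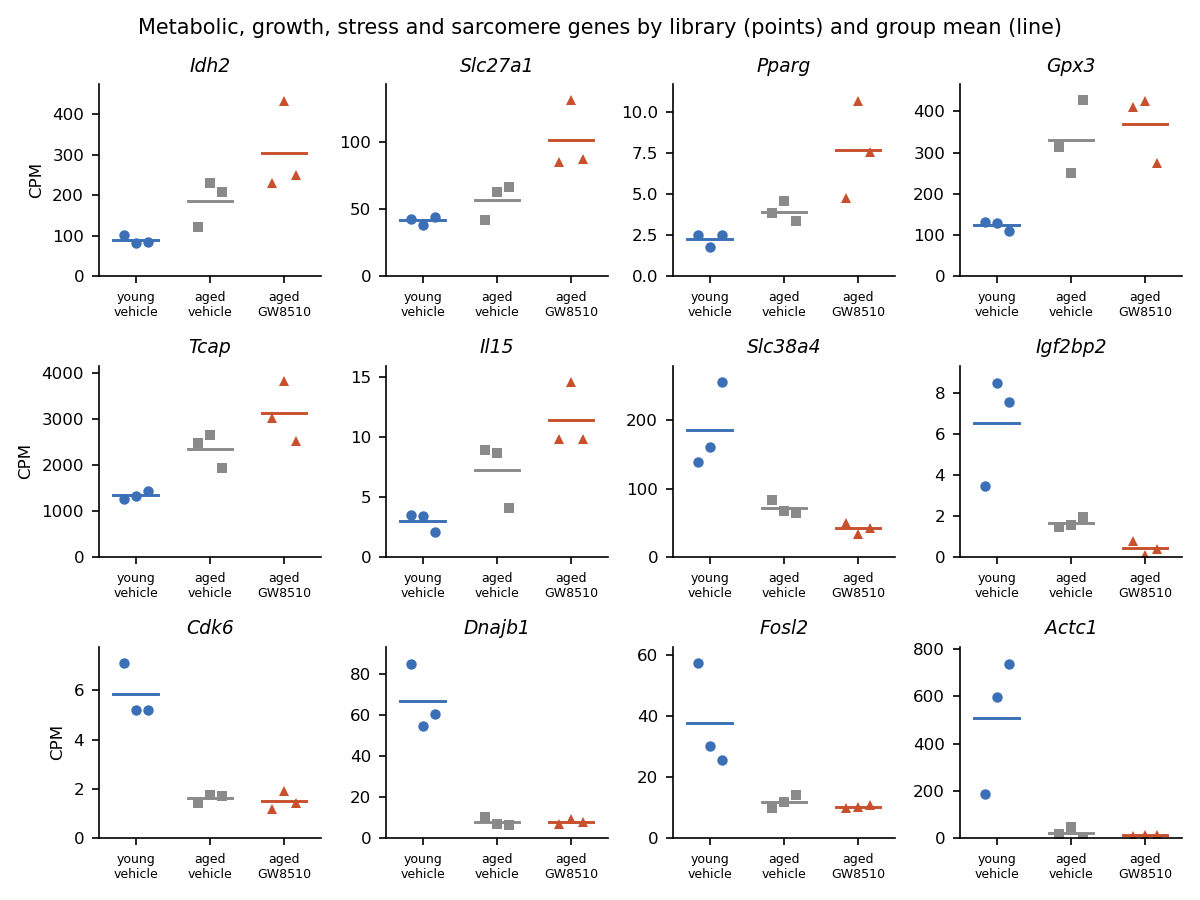
Levels of 12 genes in each library (CPM, axes from 0), points for libraries and lines for group means, in young vehicle, aged vehicle and aged GW8510 muscle. Group means of Slc27a1, Idh2 and Pparg rise in the order young, aged vehicle, aged GW8510 (Slc27a1 41.5, 56.9 and 101 CPM), and those of Slc38a4 and Igf2bp2 fall. None of these genes passed between aged vehicle and aged GW8510 (edgeR), and they were picked for their difference from young. Dnajb1, Fosl2, Cdk6 and Actc1 are low in both aged groups.

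Sarcomere genes changed in a few members. Actc1 (chr2:114047282-114053548), the cardiac actin also made by developing and regenerating fibres, measured 187, 599 and 736 CPM in young and 11.3, 12.6 and 14.1 CPM in aged GW8510 libraries. It was 40.2-fold lower (log2 -5.33, SE 0.91; adjusted p = 0.0307), with aged vehicle at 19, 49.4 and 2.81 CPM. With 9 libraries the call of Actc1 was lost without young vehicle 3 or 4, aged vehicle 1 or any 1 aged GW8510 library. With 6 libraries its list kept 1 fall whichever library was left out. Young vehicle 2 held far less Actc1 than the other two young libraries, yet lay above every aged one. Actc1 was the call among 12 cardiac and developmental sarcomere isoforms, and the rest of that list leaned the other way. Of the 12, 9 lay above 0, 4 of them without overlap (12.9% of all genes lay so), and the median was 0.93 (0.79 in aged vehicle). With 6 libraries Actn2, a Z-disc actinin, and Myl4, a light chain of atrium and developing muscle, both chosen after their values were seen, were higher (log2 0.93 and 1.30, adjusted p = 0.0296 and 0.0493). Tcap, the titin cap of the Z-disc, chosen after its values were seen, measured 1259, 1341 and 1434 CPM in young and 3032, 3840 and 2519 CPM in aged GW8510 libraries. It was 2.33-fold higher (log2 1.22, SE 0.21; adjusted p = 0.0317). Slow fibre genes had a median of 1.46 (0.60 in aged vehicle) and no call with 9 libraries, and 2 of the 11 lay higher without overlap. Their sum was 116, 128 and 189 CPM in young and 152, 524 and 212 CPM in aged GW8510 libraries, which overlap. Csrp3, a stretch-sensing Z-disc protein with the smallest p of that list, differed by log2 2.49 (adjusted p = 0.0958 with 9 and 0.047 with 6 libraries). Fast fibre genes had a median of -0.25, and none of the 9 myosin heavy chains passed in either fit.

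Slc38a4 and Igf2bp2, of amino acid transport and growth, fell, and their levels lay below those of aged vehicle as well, though that step did not pass. Slc38a4 (chr15:96994820-97055956), the amino acid transporter SNAT4, chosen after its values were seen, measured 139, 161 and 255 CPM in young and 50.5, 33.5 and 43.4 CPM in aged GW8510 libraries. It was 4.36-fold lower (log2 -2.13, SE 0.25; adjusted p = 0.00788) and passed in 9 of the 9 leave-one-out fits. Aged vehicle libraries lay between at 82.9, 67.7 and 64.0 CPM, with no overlap with either group. Their difference from aged GW8510 was log2 -0.75, with an unadjusted p of 0.0123 and an adjusted p of 0.934 (edgeR). Igf2bp2, an RNA-binding protein of growing muscle, measured 3.49, 8.46 and 7.57 CPM in young and 0.817, 0.0886 and 0.401 CPM in aged GW8510 libraries. It was 14.8-fold lower (log2 -3.89, SE 0.59; adjusted p = 0.021), with aged vehicle between at 1.45, 1.59 and 1.95 CPM. Aged GW8510 3 lies below the floor of 3 counts (0.133 CPM), so the size of this fold is uncertain. The difference of Igf2bp2 from aged vehicle was log2 -1.93 (unadjusted p = 0.00822, adjusted p = 0.934, edgeR). Irs1 and Igf1, of the IGF1 and insulin list (the latter chosen after its values were seen), missed the threshold with 9 libraries (log2 -1.84 and -1.85, adjusted p = 0.0561 and 0.0582) and passed with 6 (0.0416 and 0.0113). The list as a body did not lean either way: of 29 tested, 13 lay above 0 and 16 below, the median was -0.05, and with 6 libraries 3 fell and 1 rose. The riser was Tbc1d4, the AS160 regulator of glucose transporter traffic (chosen after its values were seen; log2 0.77, adjusted p = 0.0367 with 6 and 0.0688 with 9 libraries).

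Other genes named by the rule spanned several roles. Tmem232 (chr17:65255999-65540782), a transmembrane protein, measured 1.13, 1.44 and 2.03 CPM in young and 33.4, 14.9 and 20.5 CPM in aged GW8510 libraries. It was 15-fold higher (log2 3.90, SE 0.36; adjusted p = 0.00168), and aged vehicle was alike in range at 27.7, 19.1 and 19 CPM. Il15, a cytokine made by muscle, measured 3.52, 3.43 and 2.15 CPM in young and 9.90, 14.6 and 9.88 CPM in aged GW8510 libraries. It was 3.78-fold higher (log2 1.92, SE 0.33; adjusted p = 0.0321), the call among 16 tested cytokine and senescence factors, whose median was -0.19. With 9 libraries that call was lost when any 1 of the compared libraries was left out. With 6 libraries the list had 1 rise and 2 falls, and both counts stayed the same in each such fit. Katnal2, a katanin-like protein, Nxpe3, the histone gene Hist1h2bg, Irak1bp1, Ahr (the aryl hydrocarbon receptor), Snai3 (a SNAIL-family repressor) and Tdrkh (a Tudor-domain protein) also rose, by 7.53-, 6.57-, 6.45-, 4.99-, 4.51-, 4.35- and 4.02-fold, with adjusted p from 0.017 for Irak1bp1 to 0.0323 for Katnal2. Their group means in aged GW8510 muscle ran from 1.51 CPM for Hist1h2bg to 12 CPM for Snai3.

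Nt5dc3, a nucleotidase-domain gene (chr10:86779005-86838389), measured 129, 78.0 and 142 CPM in young and 17.6, 14.6 and 21.3 CPM in aged GW8510 libraries. It was 6.54-fold lower (log2 -2.71, SE 0.25; adjusted p = 0.0018). Kcnf1, a modulatory potassium channel subunit, measured 9.78, 8.59 and 25.4 CPM in young and 0.999, 1.06 and 1.25 CPM in aged GW8510 libraries, where the spread was small. The difference was 13.2-fold (log2 -3.72, SE 0.46; adjusted p = 0.0094). Tsga10ip, Igsf9b, C1qtnf6 (a secreted C1q-related protein) and Ripor2 fell by 18.3-, 9.30-, 5.58- and 5.07-fold, with adjusted p from 0.0138 for Ripor2 to 0.0209 for Igsf9b. Wsb1 and Ypel2, chosen after their values were seen, were 2.99- and 2.88-fold lower and passed in 9 of the 9 leave-one-out fits.

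Of the kinases that GW8510 is linked to, Cdk6 fell and no p21-activated kinase passed. Pak1, a p21-activated kinase that relays Rac and Cdc42 signals to the cytoskeleton, measured 58.4, 83.3 and 98.5 CPM in young and 79.2, 56.2 and 79.9 CPM in aged GW8510 libraries, which overlap. Its log2 difference was -0.16 (SE 0.24; adjusted p = 0.775). Pak2 (log2 -0.23, SE 0.15; adjusted p = 0.469) and Pak4 (log2 -0.33, SE 0.25; adjusted p = 0.541) did not pass either, and Pak3, Pak5 and Pak6 were too low to test. None of 20 PAK activators and cofilin pathway genes passed in either fit. Cdk6, which drives entry into the cell cycle, was the call among 23 genes of cyclin-dependent kinases. It measured 7.11, 5.2 and 5.19 CPM in young and 1.18, 1.90 and 1.42 CPM in aged GW8510 libraries, a 3.87-fold difference (log2 -1.95, SE 0.27; adjusted p = 0.0151), with aged vehicle at 1.42, 1.76 and 1.73 CPM. Cdkn1a, the p21 inhibitor of those kinases, chosen after its values were seen, was lower with 6 libraries (log2 -1.65, adjusted p = 0.0113) and not with 9 (0.0701). Proliferation genes had a median of -0.42 and no call with 9 libraries among 24 tested, and 2 fell with 6.

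A few transcripts were read in 1 of the compared groups and hardly in the other. Among the 108 genes, 4 had no read in any aged GW8510 library: the pseudogenes Rpsa-ps10, Gm4366, Rps24-ps3 and Gm2539. Set against a floor of 3 counts in a library they were at least 1284-, 804-, 192- and 31.2-fold higher in young muscle. Their total reads in the 3 aged vehicle libraries were 0, 6, 0 and 1. In turn 4 had no read in any young library (Gm12191, AC165951.1, Gm10320 and Gm34590), and were at least 143-, 31.1-, 18.5- and 8.70-fold higher in aged GW8510 muscle, with 609, 260, 165 and 71 reads in aged vehicle. Rpl30-ps9, with 1 read in young muscle and 433 to 582 in each aged GW8510 library, had the smallest adjusted p of all (3.88e-05). These 9 were chosen after their values were seen. Processed copies of ribosomal protein genes are near-identical to their parents, so that the counting could move reads between them. Rpsa, the parent of Rpsa-ps10 by name, differed by log2 1.07 (adjusted p = 0.0508 with 9 and 0.0236 with 6 libraries). Rps2, chosen after its values were seen, measured 17.7, 256 and 247 CPM in young and 25.8, 24.5 and 18.3 CPM in aged GW8510 libraries, so that young vehicle 2 stood at the level of the aged ones. Ribosomal protein genes lay above 0 in 74 of 76 cases (51.3% of all genes did), 16 without overlap (12.9% of all genes lay so). The median of these ribosomal protein genes was 0.47, as in aged vehicle (0.47). Their summed levels overlapped, with aged GW8510 4 at 11602 CPM and young vehicle 3 at 12166 CPM.

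Several zinc-finger genes of a cluster on chromosome 2 fell. Zfp968 (chr2:175372436-175384201) measured 42.7, 29.4 and 21.5 CPM in young, 2.91, 2.13 and 2.54 CPM in aged GW8510 and 4.33, 2.37 and 3.07 CPM in aged vehicle libraries. It was 12.3-fold lower (log2 -3.63, SE 0.31; adjusted p = 0.00164). Between the start of Zfp968 and base 176927809, a window chosen after these values were seen, 12 genes were tested, of which 6 fell and none rose, and 11 lay below 0. Zfp973 was 7.09-fold lower (log2 -2.83, SE 0.37; adjusted p = 0.0124), and the other 4 that fell, Gm6710, Gm14305, Gm14295 and Gm14296, carry clone-style symbols. These genes are near-identical relatives, and Zfp973 overlaps Gm14305, so that the share of reads given to each is uncertain. Other genes named here overlap an annotated neighbour as well, such as Dbp with Sphk2, Ciart with C920021L13Rik, Actc1 with A530058N18Rik and Per3 with Camta1, and whether the counting used strand is not given in the sources used here.

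Lists with no call in the 9-library fit included atrophy ubiquitin ligases, denervation genes, satellite cell genes, autophagy genes, the interferon response (31 tested, median -0.49) and complement (20 tested, median -0.56). With 6 libraries 2 atrophy genes and 1 interferon gene fell, and 1 denervation and 1 autophagy gene rose. Each of these counts became 0 in some fits with 1 of the 6 left out. No satellite cell or complement gene passed with 6. Proteasome subunits had a median of 0.14, against 0.53 for aged vehicle over young, and none passed in either fit. Of p53 targets none of 21 passed with 9 libraries, and 2 rose and 1 fell with 6. Among other cell types, no marker of endothelium, smooth muscle, Schwann cells, macrophages, adipocytes or blood cells passed. Summed Schwann cell markers were 167, 189 and 132 CPM in young and 36.3, 62.2 and 141 CPM in aged GW8510 libraries, which overlap. Summed erythroid markers were 50.1 to 111 CPM in young and 3.18, 608 and 74.2 CPM in aged GW8510 libraries, and summed macrophage markers were 131 to 363 and 113 to 212 CPM. Whether these bear on the other values was not tested.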

How the data were processed

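Muscle RNA of 9 libraries was measured by RNA-seq. The authors deposited expected counts per gene and TPM values, and a table of their own comparison with log2 fold changes and p-values. Per the submitters' processing notes CASAVA, HISAT2, StringTie, RSEM, DESeq2 and edgeR were used with build GRCm38; versions, roles and strand use are not given in the sources used here. The deposited expected counts were rounded to whole numbers (91.4% were whole already). All 9 libraries were fitted in 1 model with edgeR 4.0.16 (R 4.3.3): filterByExpr, TMM factors, quasi-likelihood F test, two-sided, Benjamini-Hochberg over 14384 genes, threshold 0.05. SEs are the log2 difference over the root of F. The code was tested on simulated counts. Deposited TPM values served only to compare levels between genes, and the authors' deposited log2 values and p-values only for their own count of marked genes.

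Named genes are, among those past the threshold with at least 1 CPM in a group, no overlap and no clone-style or pseudogene symbol, the 15 with the greatest rise and the 15 with the greatest fall, up to 4 members of each of 43 pathway and 13 marker lists by adjusted p, and Pak1 to Pak6; in a list with no call, the member with the smallest p may be given. Members and lists were chosen with earlier results of these data known. Replicate numbers paired no libraries by the labels: only 3 and 4 occur in both groups, and deviations of same-numbered libraries correlated at -0.001 and -0.201. Alternatives were the 6 compared libraries alone, other factors and filters, DESeq2 1.42.0, limma-voom 3.58.1, leaving out each library, a replicate block and other thresholds. The leave-one-out fits of the 6-library model were added after seeing the data. The floor used for depth, 3 counts in a library, equals 0.103 to 0.127 CPM in young and 0.133 to 0.136 CPM in aged GW8510 libraries.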

Additional observations from a re-analysis of the deposited data

How the results depend on the processing

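Against 108 genes (48 higher, 60 lower), the 6-library fit gave 469 (207 and 262), the fit with no filter on low counts 553 (241 and 312) and DESeq2 820 (398 and 422). An adjusted p under 0.01 left 18 (6 and 12). Leaving out 1 of the 9 libraries gave 25 to 594 genes (10 to 257 higher, 12 to 337 lower), the lowest without aged GW8510 3 and the highest without aged vehicle 4. In the 6-library fit, leaving out 1 library gave 115 to 808 (42 to 313 and 73 to 495). RLE factors gave 112, upper-quartile factors 111, a mean of at least 1 CPM 106, limma-voom 105 (35 and 70) and a fold of at least 2 gave 100. With library totals in place of factors the split was 43 higher to 82 lower. For aged GW8510 over aged vehicle the count of 0 became 5 without a filter and 8 with DESeq2, and 0 to 2 with 1 library left out. No named gene changed direction. Depth limits the low transcripts, and 3 libraries a group limit all of them.

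With the replicate block 8 genes passed (3 higher, 5 lower), 6 of them among the 108. The libraries share only a number: the pairing is not given in the labels and same-numbered libraries did not deviate together.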
